A study of Mus musculus with 2 samples.

Results

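This report covers 10 genes of the cardiac MADS-box circuit, taken as a list by name: the transcription factor genes Mef2a, Mef2b, Mef2c, Mef2d and Srf, the coactivator gene Myocd, and the class IIa histone deacetylase genes Hdac4, Hdac5, Hdac7 and Hdac9. They are 10 of 21883 protein-coding genes on the mouse autosomes, X and Y. For each gene, peaks of the histone mark H3R17me2a were read over the gene's span in mm10 and 5000 bp on either side. Chromatin immunoprecipitation sequencing (ChIP-seq) was deposited for 2 samples of wild-type mouse heart at postnatal day 21, which form 1 group with no other genotype, age or treatment to compare. Each sample has its own list of peaks, called list 1 and list 2 here.

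H3R17me2a is the asymmetric dimethyl form of an arginine on histone H3, written by Carm1, a methyltransferase that acts as a coactivator of transcription. MEF2 and SRF proteins share a DNA-binding MADS domain. MEF2 proteins bind A/T-rich sites in muscle genes, and SRF binds the CArG box, with myocardin as a strong coactivator of SRF in cardiomyocytes and smooth muscle. Class IIa histone deacetylases bind MEF2 and hold it silent until kinases such as CaMKII phosphorylate them and 14-3-3 proteins carry them out of the nucleus. Carm1 is itself a known coactivator of Mef2c in muscle cells.

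The lists cannot serve as replicates of each other. List 1 holds 21496 peaks and list 2 holds 38012. The −log10 p goes down to 2.01 in list 2 and to 5.0 in list 1, on unlike scales. The p-values of list 2 were reproduced with ChIP reads multiplied by 0.618. Equal reads over an equal background therefore give a lower −log10 p in list 2. The labels do not say whether the hearts came from separate animals. The number of ChIP reads at each summit could be recovered from the deposited fold and p-value (in 99.98% of list 1 and 99.9% of list 2 peaks). At 8820 overlapping peaks with the same summit base, the difference in reads had an SD of 0.291 in units of counting error, where independent libraries would give 1. The samples therefore differed by less than the sampling noise and were counted as 1 sample, so each result has a value from each list and no error over animals. Labels of the samples also disagree: the source names cardiac fibroblasts, the tissue is given as heart, the extraction started from frozen heart tissue, the series describes neonatal hearts, and the titles carry the name carm1 beside a wild-type genotype. Among marker genes, 5 of 6 cardiomyocyte genes were marked at a gene end by both lists (Myh6, Tnnt2, Actc1, Myl2 and Pln), against 0 of 6 fibroblast, 0 of 4 endothelial, 0 of 4 macrophage and 1 of 4 smooth muscle genes. In whole heart tissue, the share of cells that carry the mark and the amount of mark per cell cannot be told apart.

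The start sites that carried the mark are shown first, because the members differ in which start is marked and in what lies there. RefSeq's promoter table for GRCm38.p6 lists 15 start sites for 9 of the members and none for Myocd. In 7 of the 15 the window from 250 bases before to 50 after the start was overlapped by a peak of both lists, at Mef2a, Mef2d, Srf, Hdac4, Hdac5, the third of 4 Hdac7 starts and the second of 2 Hdac9 starts. Over all protein-coding genes the share of such windows was 35.3%. The sequences below run 5′ to 3′ from 200 bases before the start through its first 20 bases. The outermost Hdac9 start, which had no peak in either list, is given for contrast. Capitals mark matches, on either strand, to the CArG box, the MEF2 site, the E-box CANNTG or TATAAA.
Mef2a (chr7:67372839-67373058, minus strand): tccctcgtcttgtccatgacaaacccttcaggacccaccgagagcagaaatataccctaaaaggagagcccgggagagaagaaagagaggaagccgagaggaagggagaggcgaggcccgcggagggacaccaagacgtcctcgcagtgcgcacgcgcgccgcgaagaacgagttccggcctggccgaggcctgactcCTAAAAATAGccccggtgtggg
Mef2d (chr3:88142172-88142391, plus strand): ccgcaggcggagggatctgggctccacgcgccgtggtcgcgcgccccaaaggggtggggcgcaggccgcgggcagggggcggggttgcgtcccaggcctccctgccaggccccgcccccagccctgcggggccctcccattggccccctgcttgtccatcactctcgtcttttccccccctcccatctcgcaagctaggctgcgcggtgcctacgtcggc
Srf (chr17:46556143-46556362, minus strand): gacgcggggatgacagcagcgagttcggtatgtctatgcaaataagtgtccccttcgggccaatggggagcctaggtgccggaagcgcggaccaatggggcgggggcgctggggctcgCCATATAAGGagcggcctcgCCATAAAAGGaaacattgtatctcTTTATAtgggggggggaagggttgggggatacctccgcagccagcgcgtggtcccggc
Hdac4 (chr1:92180322-92180541, minus strand): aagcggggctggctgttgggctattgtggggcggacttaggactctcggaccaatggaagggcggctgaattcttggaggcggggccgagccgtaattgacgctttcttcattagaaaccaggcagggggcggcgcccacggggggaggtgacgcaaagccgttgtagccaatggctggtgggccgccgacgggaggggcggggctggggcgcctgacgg
Hdac5 (chr11:102230153-102230372, minus strand): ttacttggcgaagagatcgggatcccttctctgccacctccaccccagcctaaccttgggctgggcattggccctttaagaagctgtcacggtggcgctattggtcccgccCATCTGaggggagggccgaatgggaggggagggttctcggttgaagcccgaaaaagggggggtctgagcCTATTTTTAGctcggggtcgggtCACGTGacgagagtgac
Hdac7 (chr15:97831476-97831695, minus strand): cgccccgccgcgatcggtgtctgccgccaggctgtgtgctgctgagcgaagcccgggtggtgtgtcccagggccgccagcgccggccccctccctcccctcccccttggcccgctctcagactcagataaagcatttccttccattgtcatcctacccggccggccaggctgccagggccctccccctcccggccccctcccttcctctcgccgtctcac
Hdac9 internal start (chr12:34528870-34529089, minus strand): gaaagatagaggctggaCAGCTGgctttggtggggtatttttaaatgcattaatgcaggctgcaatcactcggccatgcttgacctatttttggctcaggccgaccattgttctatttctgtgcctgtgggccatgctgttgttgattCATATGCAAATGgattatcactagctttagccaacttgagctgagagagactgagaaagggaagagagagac
Hdac9 outermost start (chr12:34917076-34917295, minus strand): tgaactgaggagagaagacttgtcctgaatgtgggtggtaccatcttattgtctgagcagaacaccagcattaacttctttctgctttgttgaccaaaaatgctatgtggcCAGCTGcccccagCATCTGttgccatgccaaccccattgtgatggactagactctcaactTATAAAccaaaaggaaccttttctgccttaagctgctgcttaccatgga

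The Srf start carried 2 CArG boxes, the binding motif of the SRF protein itself. The first, CCATATAAGG, lay 82 to 73 bases before the start and the second, CCATAAAAGG, 62 to 53 bases before it. Only 1.52% of 21262 start windows of protein-coding genes held a CArG box, and 1.36% of the 7501 windows with a peak in both lists. A MEF2 site lay at the Hdac5 start (CTATTTTTAG, from 20 to 11 bases before it), in the gene of a deacetylase that binds MEF2. Another lay across the Mef2a start itself (CTAAAAATAG, from 2 bases before to 7 after it). MEF2 sites were found in 2.74% of all start windows and in 1.68% of those with a peak. Each motif was searched by its letters on both strands, no matches at these starts overlapped each other, and a match is a description of the sequence, not evidence that a factor bound there. The E-box was common (69.0% of all windows) and TATAAA less so (12.6%). Hdac5 had 2 E-boxes, one of them CACGTG from 3 to 8 bases after the start, and the internal Hdac9 start had 3.

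Starts whose 300-base window was overlapped by both lists were rich in CpG with 1 exception. The windows at Hdac4, Hdac7, Mef2a, Srf, Mef2d and Hdac5 held 32, 31, 27, 25, 24 and 18 CpG dinucleotides, whereas the marked Hdac9 start held 3. The 8 starts without a peak in both lists had between 0 and 11, apart from a second Hdac7 start with 35. Over all protein-coding genes, 66.1% of start windows with 20 or more CpG had a peak in both lists, 43.6% of those with 10 to 19, 11.8% of those with 5 to 9 and 2.40% of those with 4 or fewer. The Hdac9 internal start thus lay in a CpG class where few starts had a peak, but its list 2 peak was weak (q of 0.890) and the call was lost at a −log10 p of 5.

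**Figure D1:**
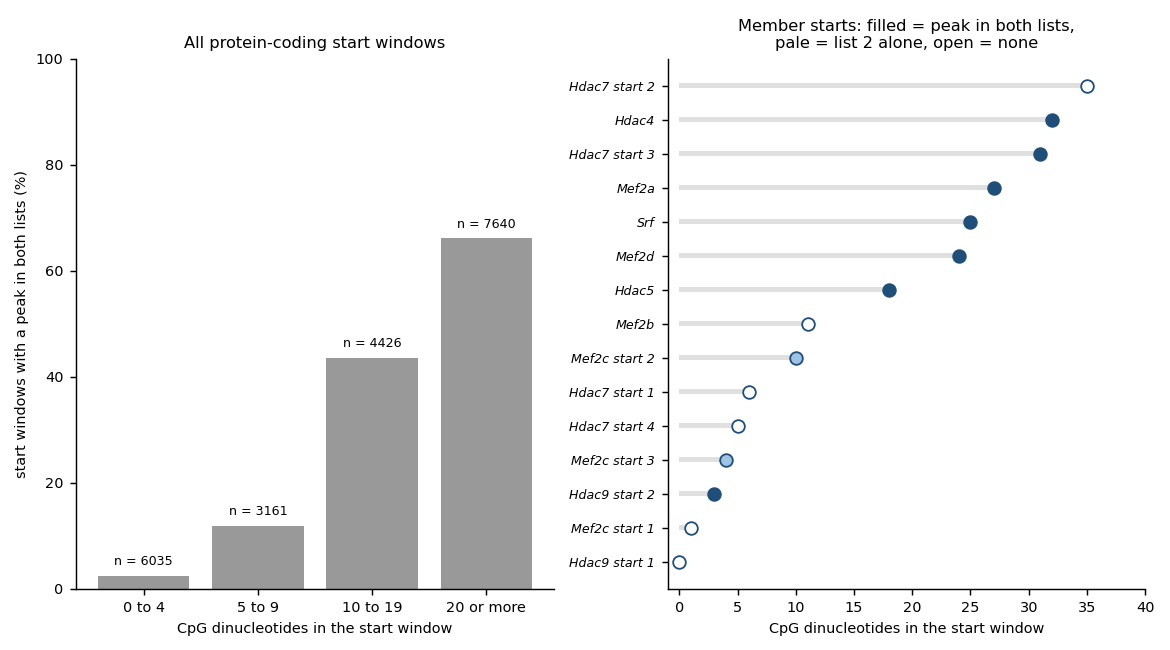
Left, share of start windows (300 bases) of all protein-coding genes with a peak in both lists, in percent, by number of CpG dinucleotides, rising from 2.40% to 66.1%. Right, CpG count of each of the 15 member starts, numbered 5′ to 3′ within a gene: filled points have a peak of both lists over the window, pale points of list 2 alone and open points of neither.

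Every member had a shared peak, meaning a list 1 peak overlapped by a list 2 peak by at least 1 bp, within its window. The background for this was 48.7% of all protein-coding genes, which is not matched for span. Among genes of similar length to each member, between 36.7% (Mef2a) and 49.7% (Hdac9) had no shared peak. Mef2b was counted only through a peak in its flank. Within 1000 bp of a listed start, 8 of the 9 members with a listed start had a peak in both lists, against 40.6% of 17491 genes, and Mef2b was the exception. That count fell to 6, without Hdac7 and Hdac9, at a −log10 p of 5, at a −log10 q of 2 or when list 2 was cut to as many peaks as list 1 holds, and to 2 in the upper 50% of each list by fold. Within 1000 bp of either end of the gene span, only Mef2a, Mef2d, Myocd and Hdac5 did (4 of 10), near the background of 38.6%. The counts differ because RefSeq spans join all transcripts of a gene, so that the marked starts of Mef2a, Srf, Mef2c, Hdac4, Hdac7 and Hdac9 lie over 1000 bp inside their spans. Mef2a is counted at a gene end through a peak at its 3′ side. The start-site count was chosen after seeing the data. It also gives Mef2c, Hdac7 and Hdac9, with 3, 4 and 2 listed starts, more chances to be counted than a gene with 1. With list 2 alone the gene-end count was 7, through peaks at ends of Mef2b, Srf and Hdac4 that list 1 lacks, and in the upper 50% of each list by fold it was 1, Myocd. Shares over all protein-coding genes were not computed under these stricter or single-list settings, so these counts have no background of their own.

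The 10 windows held 61 shared peaks, from 66 peaks in list 1 and 115 in list 2. That is 3.42 per 100 kb of window, where all protein-coding genes had 1.74. Myocd supplied 18 of the 61. Single members ranged from 0.569 (Hdac9) to 19.9 (Mef2d), with Mef2a (1.29) and Hdac9 below 1.74 and the others above it. Of the 61 shared peaks, 5 lay at an end of the span, 53 inside it away from both ends (86.9%, 95% exact binomial interval 75.8 to 94.2%, counting error only) and 3 in the flanks. The interval treats peaks as independent, although 16 of the 53 lie in Myocd, so it does not measure a spread over genes. Over all protein-coding genes 41.7% of shared peaks were inside and away from ends, but the members have a median span of 74112 bp against 17170 bp, and 7 of the inside peaks lie within 1000 bp of a listed start. The median peak width was 491 bp in list 1 against 477 bp over all genes, and 850 bp against 713.5 bp with the overlapping list 2 peaks. In list 1, 8 of 61 peaks (13.1%) reached 1000 bp against 13.5%.

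**Figure D2:**
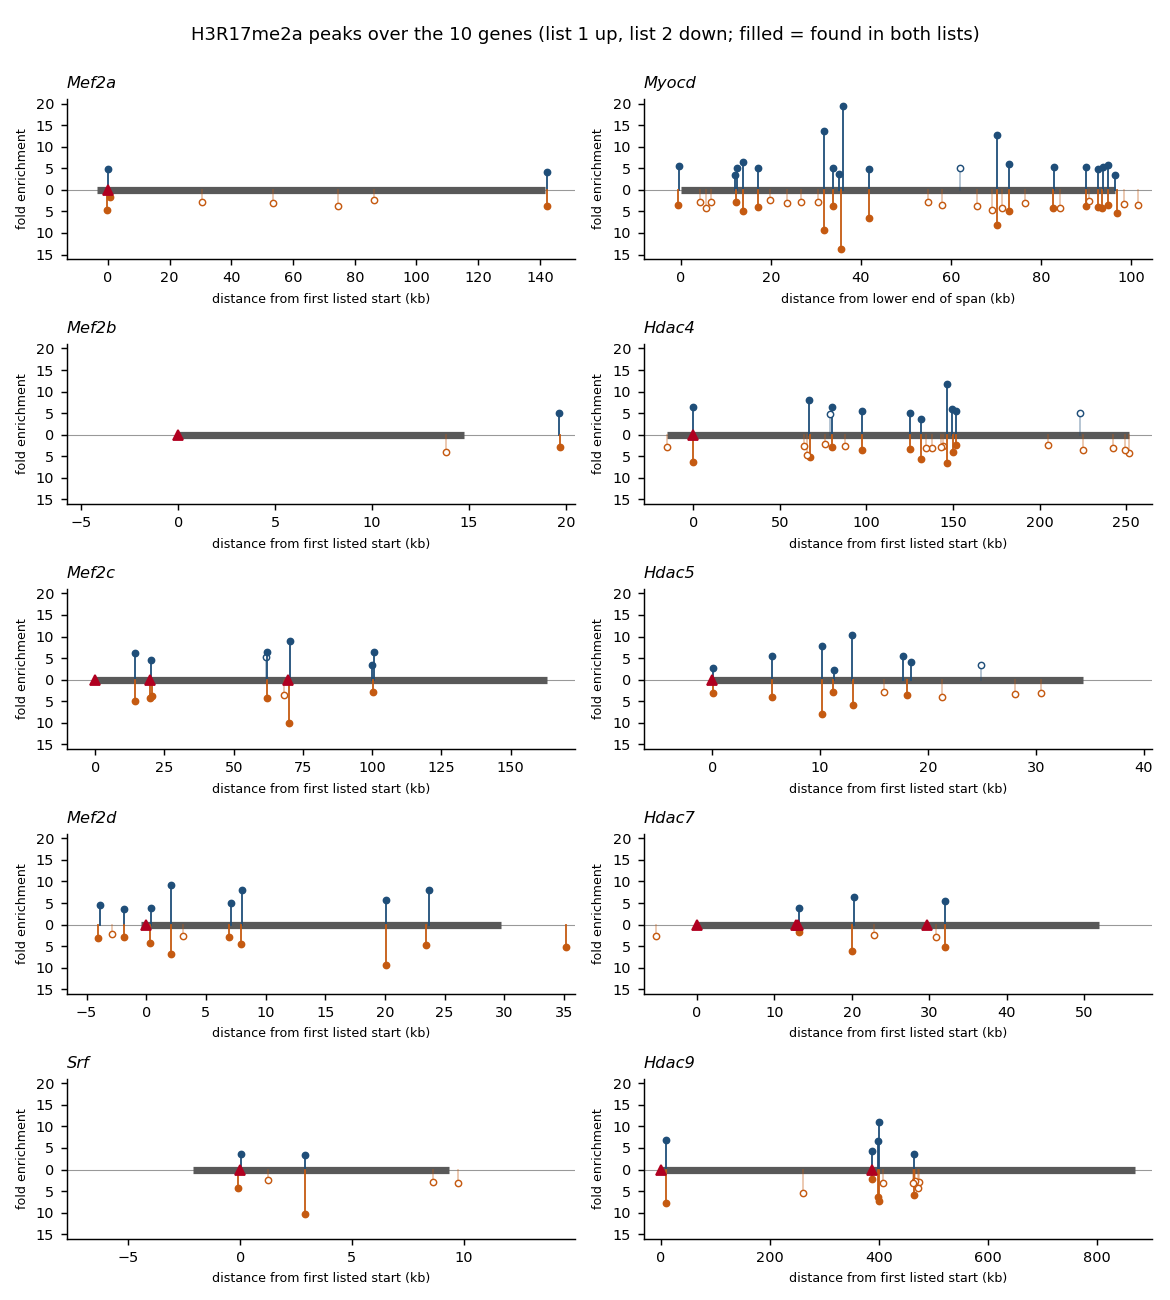
Peaks over each gene, with distance in kb from the outermost listed start (red triangles mark all listed starts; for Myocd from the lower end of the span) and the authors' fold enrichment upward for list 1 and downward for list 2. The grey bar is the gene span, filled points overlap a peak of the other list and open points do not: Myocd has the most shared peaks, 18, and Hdac9 has long empty stretches.

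MEF2 genes came first in the circuit and differed widely among themselves. Mef2d (chromosome 3, 88141941 to 88172091), a broadly expressed MEF2 factor, had 8 peaks in list 1, 11 in list 2 and 8 shared peaks in its window. Of the shared peaks, 6 touched its span of 30151 bp and the others lay in the flanks. Its density was the highest of the members, at 19.9 per 100 kb of window. Of 7601 protein-coding genes with spans between 0.5 and 2 times its length, 0.855% had as many or more. The peak over its start (88141830 to 88143652) was 1823 bp wide in list 1 and 1934 bp in list 2. Its folds were 3.74 and 4.35, from 115 and 118 reads. The highest list 1 fold of Mef2d was further inside, at 88144094 to 88144852, with 9.10 in list 1 and 6.76 in list 2 from 49 and 47 reads. In list 2 the highest was 9.35, at 88162278 to 88162629, where list 1 had 5.60. A peak 3424 bp before the start (88137991 to 88138948) had 170 and 165 reads and lay in no gene of the RefSeq table. Near the outer edge of the window, 4837 bp beyond the other end, list 2 had a peak with 384 reads over the upper end of the non-coding gene 1700113A16Rik, whose list 1 partner began 66 bp outside the window and was not counted.

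Mef2c (chromosome 13, 83504017 to 83667079), the MEF2 factor needed for heart formation, had 7 peaks in each list and 6 shared peaks, all inside the gene. Of 2575 genes of similar length, 8.43% had as many or more, and their median was 1. None lay at its outermost start, which holds 1 CpG and had no peak within 5000 bp. The highest fold was at the third listed start, where a list 1 peak of 408 bp (83574101 to 83574508) began 494 bp after the start and a list 2 peak of 1393 bp (83573232 to 83574624) covered it. Both peaks had the same summit base and 31 reads, with folds of 8.87 and 9.96, which exceed 90.5% and 95.5% of shared peaks in their lists. At the second start the list 1 peak (83523800 to 83524749) began 144 bp downstream with a fold of 4.49, and list 2 split the stretch into peaks with folds of 4.25 and 3.70. The last shared peaks, at 83603662 to 83604205 and 83604409 to 83604769, also lie in the non-coding gene Gm52043 and were covered in list 2 by 1 peak of 1133 bp, and the remaining 62310 bp of the span had none.

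Mef2a (chromosome 7, 67231163 to 67376456), a main MEF2 factor of the adult heart, had 2 peaks in list 1 and 7 in list 2, and a single strong site. The peak over its start (67371909 to 67373544) held 330 reads in list 1 and 337 in list 2 at the same summit base, the most at any shared peak of the members. Its folds were nevertheless only 4.80 and 4.76, because the background at the summit was 68.0 reads in list 1 and 69.5 in list 2 on the same scale. List 2 split the peak into 948 bp and a weak 408 bp piece with a q of 0.643. The next 140746 bp of the gene had no shared peak, while list 2 alone had 4 peaks there. The other shared peak, with folds of 4.17 and 3.81, lay past the 3′ end. Of 2861 genes of similar length, 34.2% had 2 or more shared peaks.

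Mef2b (chromosome 8, 70152761 to 70167488), better known from germinal centre B cells than from heart, had no shared peak in its span. Its 1 shared peak (70172002 to 70172846; folds of 5.0 and 2.74) lay 4514 bp beyond the gene and covered the first bases of the Tmem161a span, which begins at 70172329. Among 7706 genes of similar length 47.2% had no shared peak in their window. In list 2 alone a peak lay near the 3′ end of Mef2b, at 70166483 to 70166707, with a fold of 4.04. The span of Mef2b lies wholly within that of Gm45929, which also covers Borcs8, so a peak there could not be assigned to Mef2b alone.

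Srf (chromosome 17, 46546838 to 46558267), the shortest member, had 2 peaks in list 1, 5 in list 2 and 2 shared peaks with many reads. The peak over the start with its CArG boxes (46555693 to 46556589) had 125 reads in list 1 and 122 in list 2, with folds of 3.60 and 4.25. The other, inside the gene at 46552667 to 46553881, had 112 and 114 reads at the same summit base and overlapped the microRNA gene Mir6976. Here the folds were 3.32 and 10.2. The reads were nearly equal, and the recovered background was 33.0 reads in list 1 against 9.70 in list 2 on the same scale. Of 7135 genes of similar length, 18.1% had 2 or more shared peaks.

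Myocd (chromosome 11, 65173608 to 65269989), the gene of myocardin, had the most peaks of the list, 19 in list 1 and 33 in list 2. Its 18 shared peaks put it among the 56 protein-coding genes of 21883 with that many or more, and 0.492% of 4069 genes of similar length reached that count. The strongest lay in a run of 4 list 1 peaks between 65204735 and 65210132. One of them (65209163 to 65210132) had 57 reads in both lists over a background of 2.00 and 2.65 reads, and folds of 19.3 and 13.7. Those folds exceed 99.7% and 98.6% of shared peaks. A neighbour at 65204735 to 65205979 had folds of 13.7 and 9.21 from 30 and 31 reads, and another strong site at 65243607 to 65244221 had 12.6 and 8.17 from 39 and 38 reads.

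The rest of the Myocd peaks were weaker. In 12 of the 18 the list 1 summit held fewer than 20 reads, and 10 shared peaks were left when only peaks with a −log10 p of 5 or more were used (11 at a −log10 q of 2). Such a limit is stricter in list 2, where a peak with 9 reads in both lists had a −log10 p of 4.10 against 6.91 in list 1. The span's upper end carried a peak (65269717 to 65270361; 51 and 50 reads, folds of 3.47 and 5.32) that also covers the start of the span of the non-coding gene Gm30586. The lower end carried a narrow one of 191 bp in list 1 with 10 reads in both lists. The promoter table holds no Myocd start, so neither end was assigned as the start.

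**Figure D3:**
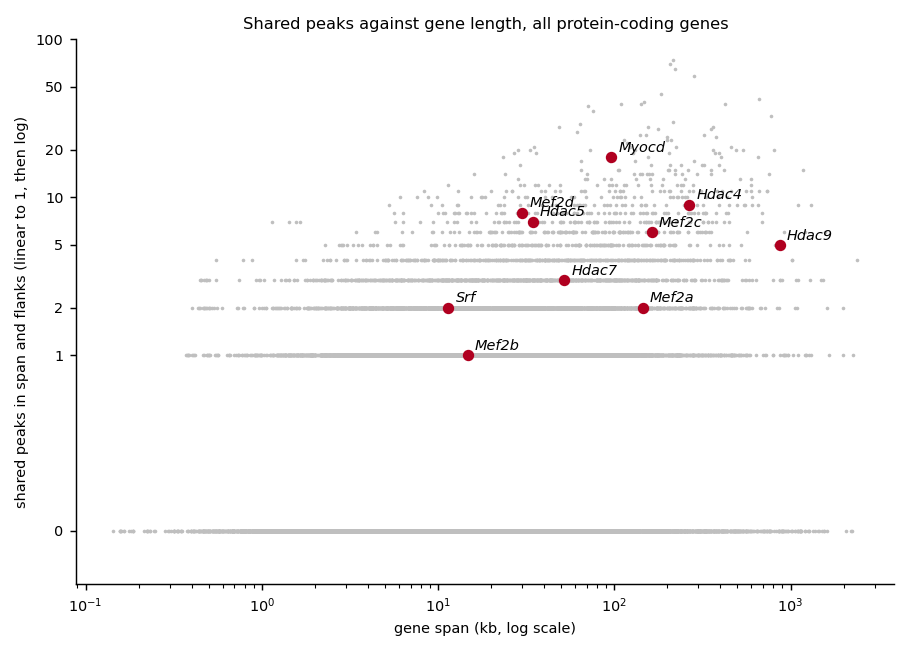
Shared peaks in the span and 5000 bp either side (vertical, linear to 1 and then logarithmic) against gene span in kb (horizontal, logarithmic) for 21883 protein-coding genes in grey and the members in red. Myocd, Mef2d and Hdac5 lie above most genes of their length, and Mef2b and Mef2a lie within the bulk.

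Among the deacetylases, Hdac5 (chromosome 11, 102195747 to 102230172), which restrains hypertrophic growth of the heart, was the most densely marked. It had 8 peaks in list 1, 10 in list 2 and 7 shared peaks, and 1.43% of 7276 genes of similar length had as many. The start peak with the MEF2 site (102229864 to 102230230) was narrow, 367 bp in list 1 and 327 bp in list 2. It held 251 and 249 reads over backgrounds of 90.0 and 80.9, so that its folds were only 2.77 and 3.04, and it overlapped the microRNA gene Mir8101. Larger folds lay further into the gene. The peak at 102219604 to 102220302, 9870 bp from the start, had 138 and 139 reads and folds of 7.73 and 7.90. Further in, past a shared peak at 102218766 to 102218995 with folds of 2.30 and 2.79, lay the widest shared peak of all members. It spanned 2250 bp in list 1 (102216036 to 102218285) and 2487 bp in list 2. Its folds were 10.3 and 5.94, at summits 749 bp apart.

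Hdac4 (chromosome 1, 91928779 to 92195702), a regulator of muscle and cartilage growth, had 11 peaks in list 1, 23 in list 2 and 9 shared peaks, and 6.64% of 1476 genes of similar length had as many. Its start peak (92180219 to 92180944) had the largest fold among the CpG-rich starts, 6.45 and 6.40, from 173 and 170 reads over backgrounds of 26.0 and 25.2. The other 8 lay between 66488 and 151711 bp from the start. The strongest of those, at 92033420 to 92033886, had folds of 11.9 and 6.43 from 41 and 40 reads. Requiring a −log10 p of at least 5 in each list left 4 shared peaks. The other 5 fell below it in list 2, where equal reads give a lower −log10 p. The 99369 bp at the lower end of the span held no shared peak.

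Hdac7 (chromosome 15, 97792661 to 97844502), a deacetylase best known from endothelial cells and thymocytes, had 3 peaks in list 1, 6 in list 2 and 3 shared peaks, with 11.3% of 6071 similar genes at that number or above. The peak at the third start (97831056 to 97831506) reached 11 bases upstream of the start and held 46 reads in both lists. The fold was 3.84 in list 1 and 1.64 in list 2, where the q was 0.839, and the recovered background was 11.2 and 27.5 reads. It also lay in the non-coding gene Gm33636. The peaks inside were steadier, with folds of 6.50 and 6.23 at 97823869 to 97824675 and 5.57 and 5.15 at 97811942 to 97812912.

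Hdac9 (chromosome 12, 34047580 to 34917095), the longest member at 869516 bp and a known MEF2 partner in muscle, had 5 peaks in list 1, 11 in list 2 and 5 shared peaks. Their density of 0.569 per 100 kb was the lowest of the members, although 14.7% of 286 genes of similar length had 5 or more. None lay at the outermost start, and the nearest, with folds of 6.85 and 7.82, was 9761 bp inside. The internal start was covered by a peak (34528473 to 34529369) with 20 and 19 reads. Its fold was 4.20 in list 1 and 2.12 in list 2, where the q was 0.890. Downstream of that start lay 2 further peaks close together, the stronger (34516770 to 34517115) with folds of 10.9 and 7.30 from 21 and 22 reads. The lower 405321 bp of the span had no shared peak.

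Peaks at starts and peaks elsewhere differed in what stood behind their folds. The 9 shared peaks within 1000 bp of a listed start had a median of 115 ChIP reads over a background of 26.0 reads, and a median fold of 4.20. The other 52 had a median of 20.5 reads over 2.17, and a median fold of 5.47. The same order held over all protein-coding genes, with medians of 50 reads, a background of 11 and a fold of 4.0 at starts and of 20 reads, 2.54 and 5.33 elsewhere. High folds at the members thus lay mostly at peaks away from listed starts with few background reads. Most of the 9 peaks near a listed start had more reads and a lower fold than the medians elsewhere. The exceptions were the third Mef2c start (list 1 fold of 8.87), Hdac4 (6.45) and Hdac9 (20 reads). Myocd has no listed start, so all 18 of its shared peaks were counted among the 52. They include the highest list 1 folds, 19.3, 13.7 and 12.6, whose distance from a start is not known here. In 25 of the 61 peaks the list 1 summit held fewer than 20 reads.

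**Figure D4:**
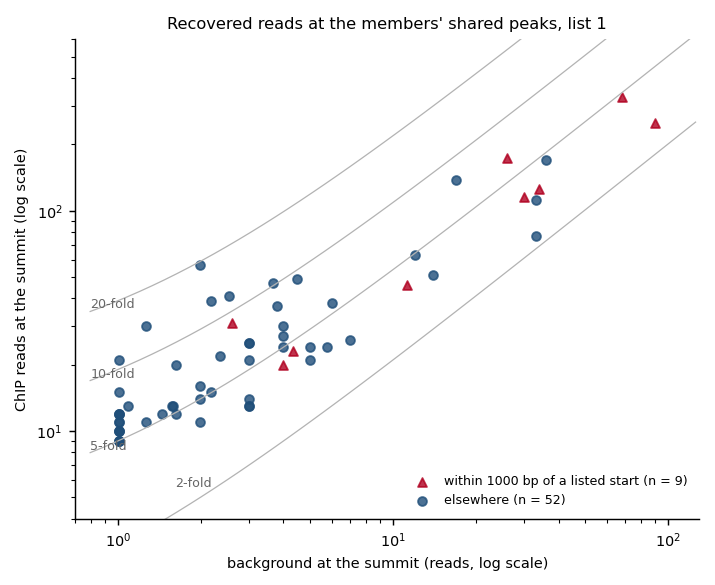
ChIP reads at the summit against background reads at the summit (both logarithmic) for the 61 shared peaks of list 1, with 9 near a listed start as triangles and 52 elsewhere, all Myocd peaks included, as circles; grey lines join points of equal fold. Most start peaks lie at upper right with high reads and high background, and the 20-fold line is approached by Myocd alone.

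Between the lists, reads at equal summits of the members hardly moved and folds did. In 28 of 63 overlapping pairs the summit was the same base, and there the reads differed by a median of 0.5 and at most 7. Over all overlapping pairs of the 2 lists, 42.1% had the same summit base. The list 1 fold was the higher in 49 of the 63 pairs. It exceeded the list 2 fold by more than 1.5 times in 22 pairs and fell short of it by as much in 6. The fold adds 1 to reads and to background, and list 2 is scaled by 0.618, so equal reads and background give a lower list 2 fold. A Myocd pair with 9 reads in both lists, over backgrounds of 1.01 and 1.11, had folds of 4.98 and 3.90. Over all shared peaks the median fold was 4.98 in list 1 and 4.16 in list 2. The part of the scaling in these differences was not tested. Of the 55 list 2 peaks at the members without a list 1 partner, 46 had a −log10 p under 5 and 40 had a q above 0.05. Over all list 2 peaks, with or without a partner, 38.1% had a q above 0.05. A −log10 p of 5 is the lowest that list 1 holds, but equal reads give a lower value in list 2. How many of the 46 would fall below 5 on the list 1 scale is therefore not known. Of the 66 list 1 peaks at the members, 5 lacked a list 2 partner, while over the whole of list 1 97.1% of peaks had one.

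**Figure D5:**
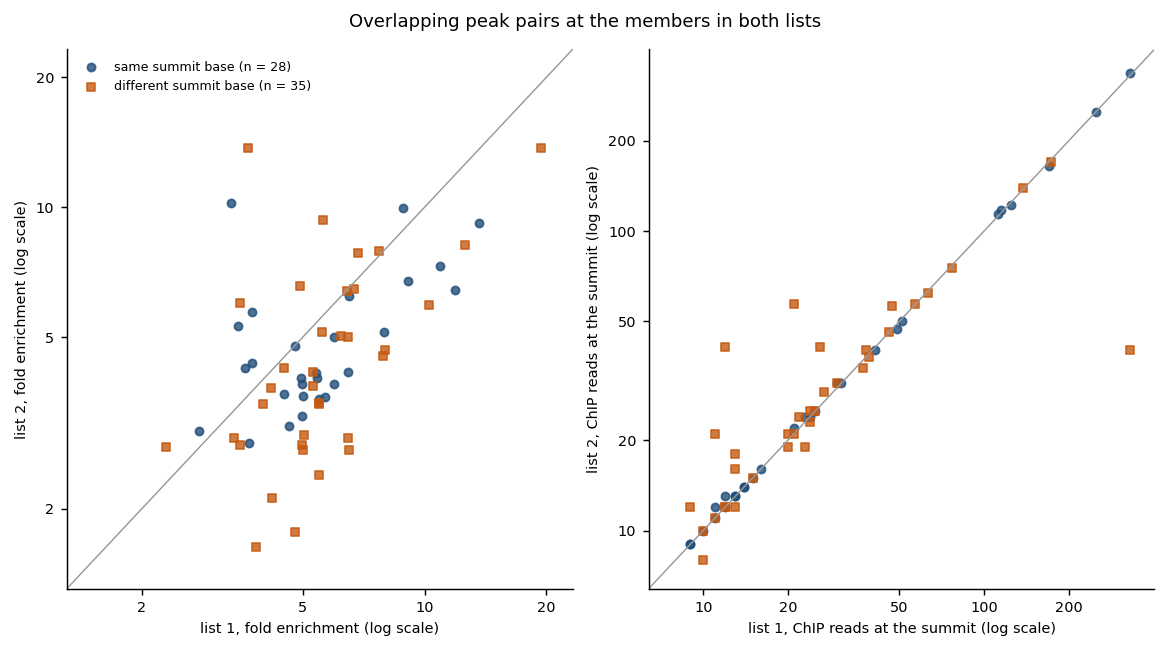
Fold enrichment (left) and recovered ChIP reads at the summit (right) of the 63 overlapping pairs, list 1 against list 2 on logarithmic axes, with 28 pairs of equal summit base as circles and 35 others as squares; the line marks equality. Reads of the circles lie close to the line and folds scatter around it.

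The partners, regulators and targets of these factors were mostly marked at a gene end. Of 74 genes in 8 lists, 52 (70.3%) were marked at a gene end by both peak lists, against 38.6% of all protein-coding genes. In the upper 50% of each peak list by fold 12 were, a setting for which no share over all genes was computed. The lists were chosen with earlier results of these data known, and their counts are descriptions. All 10 MEF2 target genes were marked, with Slc2a4, the insulin-responsive glucose transporter, at the highest list 1 fold (9.38 and 6.83). Of 14 SRF targets 9 were, led by cardiac actin Actc1 (15.5 and 10.1). The 5 without were Acta1, Tagln, Cnn1, Myh11 and Egr2. Of the smooth muscle genes in that list, Tagln, Cnn1 and Myh11 had none and Acta2 was marked.

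Proteins that work on the members followed. Among enzymes and coactivators that activate MEF2, 9 of 10 were marked, with Ppp3r1, the regulatory subunit of calcineurin, highest (4.82 and 3.75) and Map2k5 without. Of SRF cofactors 5 of 7 were, Mrtfa and Mrtfb included, with the LIM protein gene Fhl2 highest in list 1 (8.32 and 2.58). Of 14-3-3 genes 6 of 7 were (Ywhae, 8.74 and 5.68), and of the corepressor complex that works with Hdac3, 4 of 5. Kinases of class IIa deacetylases were marked at 6 of 14 (Camk2g, 4.91 and 6.02), and the deacetylases outside class IIa at 3 of 7 (Hdac2, Hdac3 and Hdac10, with Hdac3 at 6.75 and 3.42), both near the background of all genes. In the upper 50% of each peak list by fold, the MEF2 activators, the corepressor complex, the kinases and these deacetylases kept 0. The SRF cofactors kept 3, the 14-3-3 genes 2, the SRF targets 3 and the MEF2 targets 4.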

How the data were processed

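H3R17me2a ChIP-seq was deposited for 2 samples of wild-type heart. FastQC, Bowtie2 and mm10 are named in the submitters' processing notes. The caller, control library and filters behind the peaks were not given in the sources used here. The columns of the narrow peak lists were identified by their order and ranges. The deposited fold is a linear ratio over background at the summit. Deposited p-values and q-values are −log10 transformed, and the deposited score was not used. These are the authors' values and describe peaks within a list.

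Reads were recovered by finding the whole number n for which a fold of (n + 1) / (background + 1) and the upper Poisson tail gave the deposited p within 0.001 on the −log10 scale. In list 2 this needed ChIP reads multiplied by 0.618, a factor found by scanning list 2 alone. Backgrounds of list 2 are printed divided by this factor. On 1500 simulated peaks with and 1500 without a factor, 99.9% and 100% of known reads came back. Gene spans and starts are RefSeq's for GRCm38.p6, whose chromosomes have mm10 coordinates, and coordinates are 1-based. Genes were named by rule: all members, and from each list the gene with the highest list 1 fold at an end. For 1 list that gene is not reported here. Members and lists were chosen with earlier results of these data known. With 1 sample no test was run. Alternatives were single lists, stricter thresholds, and other overlaps and windows. Python 3.11.15, pandas 2.3.3 and scipy 1.17.1 were used.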

Additional observations from a re-analysis of the deposited data

How the results depend on the processing

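All 10 members kept a shared peak in the window under list 1 alone, list 2 alone, list 2 trimmed to the length of list 1, an overlap of 50% of the shorter peak, and windows of 10000 bp. Mef2b was lost, leaving 9, in the span alone and when each list was limited to a −log10 p of 5 or a −log10 q of 2, and 7 members were left among the 50% of peaks with the highest folds. Leaving out each list in turn gave 4 to 7 members with a gene-end peak, 8 with a start peak and 66 to 115 peaks. In the upper 50% by fold, 1 member had a gene-end peak, 2 had a start peak (Mef2c and Hdac4), 32 peaks were shared, 96.9% of them inside the genes, and 12 listed pathway genes had a gene-end peak. Shared peaks fell to 40 when each list was limited to a −log10 p of 5, where the starts of Hdac7 and Hdac9 lost the mark, as they did at a −log10 q of 2 and with list 2 trimmed. A limit on −log10 p is stricter in list 2, whose reads are scaled by 0.618. The share inside genes was 94.6% with the span alone. The median width was 850 bp taken from list 2, beyond the order-statistic interval of 404 to 667 bp around 491 bp. The 154 further values, for single genes and lists, were within 1.5 times the main value in 120 cases and not in 34. Shares over all protein-coding genes were not computed under the alternatives. No paired analysis was possible because there is 1 group. Total depth is unknown, and 25 of the 61 shared peaks rest on fewer than 20 reads in list 1.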
